A study of Mus musculus with 31 samples.

Results

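Ribosomal protein genes encode the protein parts of the small (40S) and large (60S) subunits of the cytosolic ribosome, and they are among the most highly transcribed genes of growing cells, germ cells included. Their promoters are typically rich in CG dinucleotides and start transcription at a terminal oligopyrimidine tract, a run of C and T bases that begins with C and lets nutrient signalling control translation of the mRNA. In mouse meiosis the zinc-finger protein PRDM9 binds DNA, methylates histone H3 nearby and directs the breaks that start recombination to its own sites; without it, breaks form at promoters and other places that already carry the same histone mark. The genes described here were taken by symbol: autosomal protein-coding genes named Rpl or Rps followed by a digit, a or p, without the Rps6k kinases. This gave 87 of the 20661 autosomal protein-coding genes of the RefSeq annotation of GRCm38.p6, the assembly behind mm10. They comprise 30 small-subunit genes, 40 large-subunit genes, the 3 genes of the ribosomal stalk (Rplp0, Rplp1 and Rplp2), 10 paralogs such as Rpl10l and Rpl22l1, 3 genes with retrogene or pseudogene names (Rps23rg1, Rpl34-ps1 and Rpl31-ps12), and Rps19bp1, whose product is not a ribosomal protein although its symbol fits. The genes are short, with a median span of 3183 bp against 17491 bp for all autosomal protein-coding genes, so the windows at both ends cover much of each gene.

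Double-strand breaks were mapped in testis by DMC1 SSDS, which pulls down the recombinase DMC1 and sequences the single-stranded DNA it coats, and the authors called 1 list of hotspots for each of 26 genotypes. The inbred lists are PWD (strain PWD/PhJ), MOL (strain MOLF/EiJ), CAST (strain CAST/EiJ), 13R (strain B10.F-H2pb1/(13R)J), C3H (strain C3H/HeJ) and B6 (strain C57Bl/6J). A further 19 lists are F1 crosses of these 6 strains, written with the mother (f) first and the father (m) second, and the last is the Prdm9 knockout, with B6;129P2-Prdm9<tm1Ymat>/J on both sides. Autosomal hotspots numbered between 9748 (B6fX13Rm) and 18270 (PWDfXCASTm) in the 25 lists other than the knockout and 29991 in the knockout. Each genotype has 1 library, so a difference between 2 lists has no replicate check. The sources used here give neither ages nor how many animals went into a library. The tissue label could not be checked, since hotspot lists measure no RNA, and the series text names the CAST sample as once wrongly labelled, so the strain test is given without it too.

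A gene was counted as having a hotspot when its annotated span had an end within 1000 bp of a hotspot centre. In the Prdm9 knockout 66 of the 87 genes had one (75.9%, 95% Clopper-Pearson interval 65.5 to 84.4, counting error only), against 51.6% of all autosomal protein-coding genes. The knockout hotspot was the sole contact with any list for most of them, as it was for genes at large. Of the 66 genes 51 were in none of the other 25 lists, as were 8373 of the 10669 protein-coding genes with a knockout hotspot. Taken over the 87 genes and over all genes these were 58.6% and 40.5%, which include the difference in knockout hotspots itself. Another 2 genes, Rpl19 and Rps2, had a hotspot in another list and none in the knockout, and 19 had none anywhere. The share was 80% in both subunits, with 24 of 30 small-subunit genes and 32 of 40 large-subunit genes, and all 3 stalk genes had a hotspot. Of the 10 paralogs 6 had one, and of the 3 genes with retrogene or pseudogene names none did. The 73 small-subunit, large-subunit and stalk genes alone gave 59 (80.8%).

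**Figure D1:**
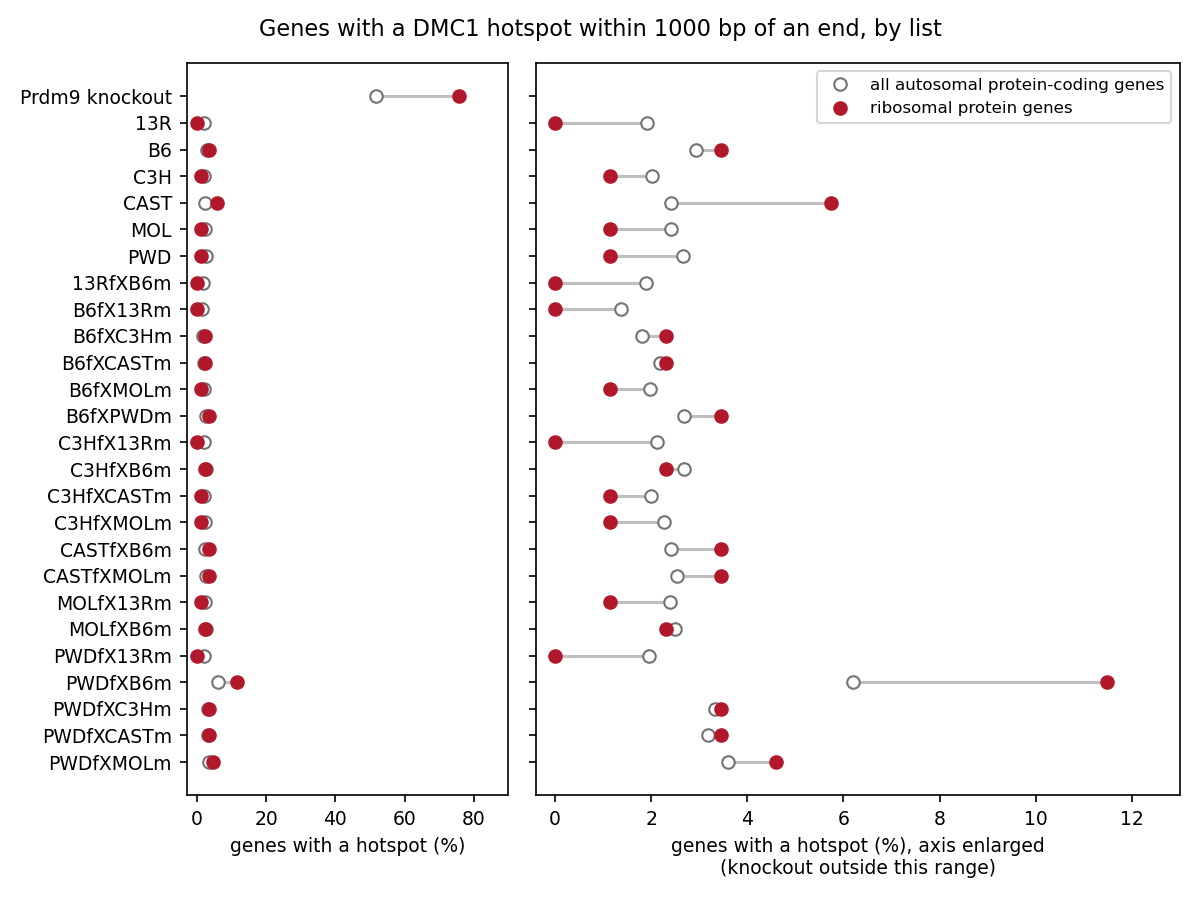
Percent of genes with a hotspot centre within 1000 bp of an end (x axis, 2 ranges) for each of the 26 lists (y axis), with filled points for the 87 ribosomal protein genes and open points for all 20661 autosomal protein-coding genes. The knockout stands at 75.9% against 51.6%; in the other lists the filled points lie between 0 and 11.5%.

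The strength of these knockout hotspots was spread over nearly the whole range. Strength was used as a rank and percentile within a list, because the scale of the deposited score is not known. The strongest hotspot of each of the 66 genes had a median percentile of 75.2 (100 is the strongest), with quartiles of 48.2 and 88.7, against a median of 72.8 and quartiles of 45.3 and 89.0 over all 10669 genes with a knockout hotspot. Among the strongest 5000 autosomal hotspots were those of 27 of the 87 genes (31.0%, against 18.2% of all genes), among the strongest 10000 those of 41 (47.1%, against 29.5%), and among the strongest 1000 those of 5 (5.75%, against 4.15%). Ribosomal protein genes had a knockout hotspot more often than protein-coding genes at large in this library, while the hotspots that they had were of similar rank to those of other genes; 40.9% of the 66 and 35.3% of the 10669 ranked in the strongest 5000. No test was made of either contrast, which comes from 1 library. The median width of the members' 72 knockout hotspots was 2966 bp, against 2727 bp for all knockout hotspots at gene ends.

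**Figure D2:**
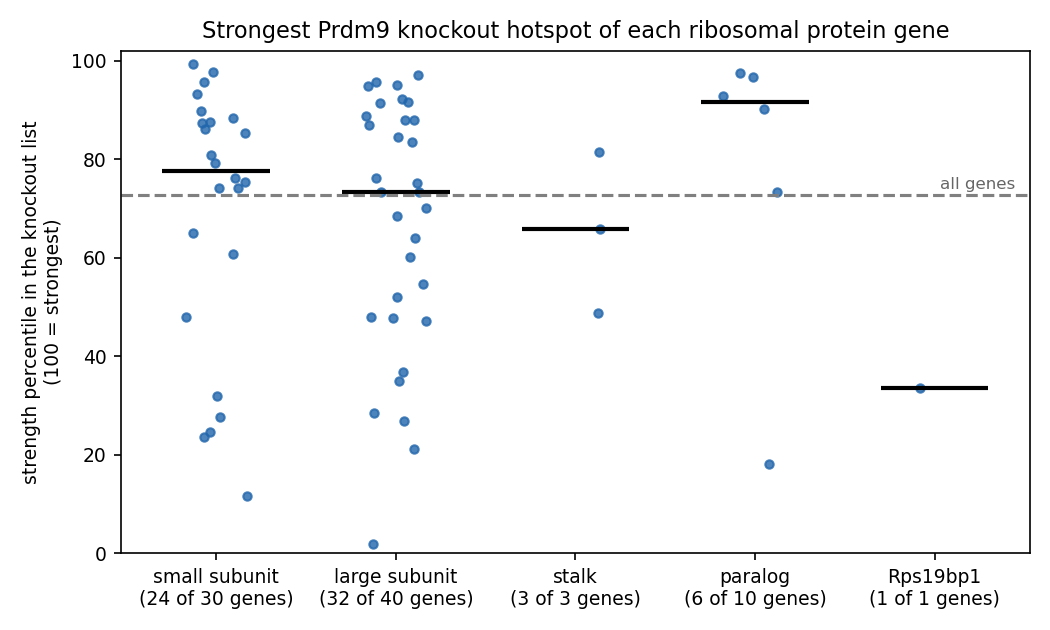
Strength percentile within the knockout list (y axis) of the strongest hotspot of each ribosomal protein gene, by class (x axis); each point is 1 gene, bars are class medians and the dashed line is the median of all genes with a knockout hotspot. The small-subunit (77.6) and large-subunit (73.3) medians lie close to the line at 72.8, and 4 of the 6 paralogs lie above 90.

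The strongest knockout hotspot at these genes belonged to Rps13, a small-subunit gene on chromosome 7. It ranked 225 of 29991, ran from 116332493 to 116336036 and was centred 74.5 bp upstream of the annotated start of transcription. Rps27a, which encodes a small-subunit protein fused to ubiquitin, followed at rank 679 on chromosome 11. Next came Rpl22l1, a paralog of the large-subunit gene Rpl22, at rank 765 on chromosome 3, and Rpl35a, a large-subunit gene, at rank 904 on chromosome 16. Rpl10l, a testis-expressed paralog of the X-linked gene Rpl10 that is required in male meiosis, ranked 998 on chromosome 12. The other 7 of the strongest 12 were the large-subunit genes Rpl7 (rank 1294), Rpl37 (1461), Rpl30 (1527) and Rpl34 (2351), the small-subunit genes Rps27 (1331) and Rps3a1 (2028), and the paralog Rpl36al (2169). Rpl36al, Rpl10l and Rpl39l (rank 2933) are the autosomal paralogs of the X-linked genes Rpl36a, Rpl10 and Rpl39. All 3 ranked in the strongest 5000, but they were put together after their values were seen. Over all 10 paralogs 4 ranked there, these 3 and Rpl22l1, against 18.2% of all genes. By contrast Rpl3l, a muscle-expressed paralog of Rpl3, ranked 24580, and Rpsa, whose product is also known as a laminin receptor precursor, ranked 26509.

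Some of these hotspots lay at the ends of other genes too. At 17 of the 66 genes (25.8%) at least 1 knockout hotspot also lay within 1000 bp of an end of another protein-coding gene, against 24.2% of all genes with a knockout hotspot, and at 15 of them every hotspot did. Rps27a shares its hotspot with Clhc1, Rpl35a with Iqcg, Rps27 with Rab13 and Rpl36al with Mgat2. The lists do not tell which of the 2 genes a hotspot belongs to.

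The 21 genes without a knockout hotspot at an end fell into near misses and genes far from any. The nearest centre outside the window lay at 1242.5 bp, and the farthest inside it was at Rpl29, at 970.5 bp. At 5 of the 21, a knockout hotspot lay within 1000 bp of an annotated start of transcription inside the gene span rather than at its outer end. These were the large-subunit genes Rpl18, Rpl19 and Rpl22 (ranks 23026, 17185 and 14431), the small-subunit gene Rps2 (rank 7080) and the paralog Rps27l (rank 6110). Rpl17 had its nearest centre at 1923.5 bp. Others were far from any knockout hotspot: Rps26 by 34540.5 bp, Rpl13a by 25637.5 bp, Rpl15 by 25085.5 bp, Rpl41 by 22403.5 bp and Rps21 by 15057.5 bp. Rps26 and Rpl41 are both on chromosome 10. Others without one were Rpl3, Rps29, the paralogs Rpl32l, Rpl37rt and Rps27rt, and Rps23rg1, Rpl34-ps1 and Rpl31-ps12.

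The promoter table used here holds starts of transcription for 66 of the 87 genes, 51 of them with a knockout hotspot at a gene end. At 49 of the 51 the centre lay within 1000 bp of a start, against 92.0% of all 8554 such genes; the exceptions were Rpl6 and Rpl38. The median absolute distance to the start was 273.5 bp over these 49 genes and 209.5 bp over all genes. The centre lay downstream of the start, inside the transcribed region, at 41 of the 49 (83.7%), against 72.2% of all genes, and the median signed distance was 212.5 bp downstream. Counting hotspots at annotated starts alone, 55 of the 66 genes had one (83.3%, against 54.7% of all genes with an annotated start). For Rpl38 this was a second hotspot, at rank 14996, whereas the one at its outer end ranked 29434, the weakest of the 66 genes.

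**Figure D3:**
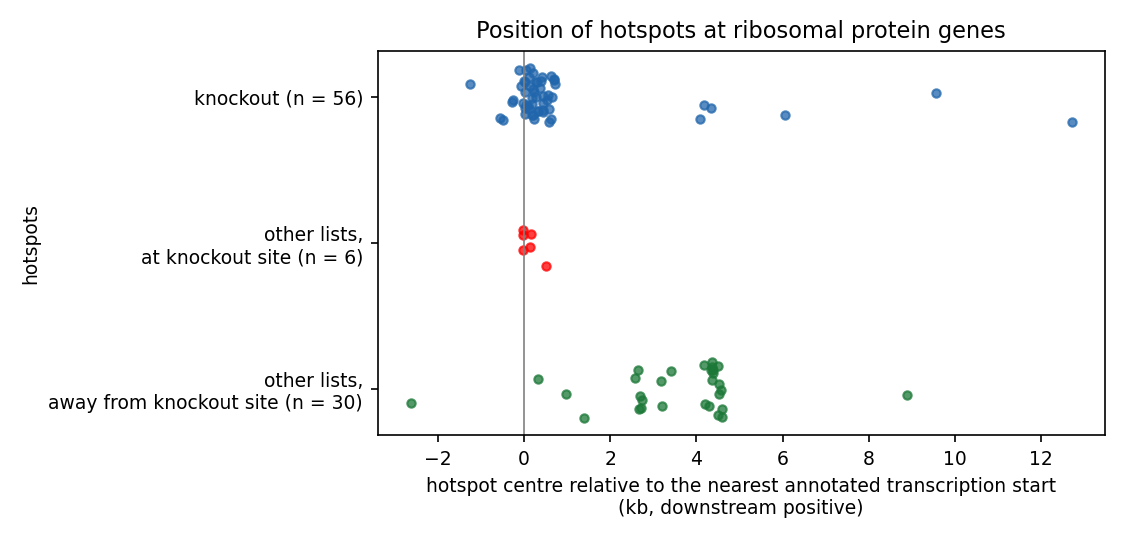
Position of hotspot centres relative to the nearest annotated start of transcription (x axis, kb, downstream positive) for the ribosomal protein genes with an annotated start; each point is 1 hotspot of 1 gene, with the knockout above and the other 25 lists below, divided by whether the centre lay less than 400 bp from a knockout centre. Of the 56 knockout hotspots 49 lie within 1000 bp of the start. Of the 30 hotspots of other lists away from a knockout site 26 lie over 2500 bp downstream. These 26 are a few places seen again in several lists: Rpl38 (9 lists), Rpl31 (7), Rpl3l (6), Rpl19 (3) and Rpl5 (1).

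Rpl38 had hotspots in the most other lists among the autosomal ribosomal protein genes. The first 2 genes by symbol with an annotated start and no knockout hotspot were Rpl13a and Rpl15. The promoters of these genes, and of the 4 strongest knockout genes with an annotated start near the hotspot, show what lies at these starts. Each is RefSeq sequence of GRCm38.p6 from 120 bases before to 30 bases from the start of transcription on, 5′ to 3′ on the strand of the gene. Capitals mark searched motifs and the oligopyrimidine tract; CCGCCC is GGGCGG read on the other strand, and TTTATA is TATAAA.
Rps13 (chr7:116334161-116334310, minus strand): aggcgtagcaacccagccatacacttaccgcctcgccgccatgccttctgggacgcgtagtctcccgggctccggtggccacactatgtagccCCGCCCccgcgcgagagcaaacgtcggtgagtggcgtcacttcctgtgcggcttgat
Rpl22l1 (chr3:28805388-28805537, plus strand): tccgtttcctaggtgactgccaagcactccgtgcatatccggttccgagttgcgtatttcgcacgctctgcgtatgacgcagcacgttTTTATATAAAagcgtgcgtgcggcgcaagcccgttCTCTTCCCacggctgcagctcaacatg
Rpl35a (chr16:33056333-33056482, plus strand): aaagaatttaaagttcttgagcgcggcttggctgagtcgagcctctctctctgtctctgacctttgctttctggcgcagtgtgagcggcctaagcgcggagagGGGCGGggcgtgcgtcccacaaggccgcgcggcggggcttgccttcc
Rpl10l (chr12:66284372-66284521, minus strand): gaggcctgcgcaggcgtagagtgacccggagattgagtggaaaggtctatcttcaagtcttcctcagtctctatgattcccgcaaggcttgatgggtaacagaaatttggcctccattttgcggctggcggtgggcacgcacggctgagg
Rpl13a (chr7:45128716-45128865, minus strand, no knockout hotspot): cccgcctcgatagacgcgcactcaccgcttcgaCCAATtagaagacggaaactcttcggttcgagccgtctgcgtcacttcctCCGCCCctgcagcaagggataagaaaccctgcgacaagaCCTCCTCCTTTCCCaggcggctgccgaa
Rpl15 (chr14:18270957-18271106, minus strand, no knockout hotspot): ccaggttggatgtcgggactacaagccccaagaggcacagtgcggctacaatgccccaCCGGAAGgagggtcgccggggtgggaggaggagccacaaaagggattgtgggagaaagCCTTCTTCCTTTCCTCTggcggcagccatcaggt
Rpl38 (chr11:114668460-114668609, plus strand): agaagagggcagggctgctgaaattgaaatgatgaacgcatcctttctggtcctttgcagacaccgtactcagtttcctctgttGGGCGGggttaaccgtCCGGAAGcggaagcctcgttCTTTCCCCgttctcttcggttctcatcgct

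The printed promoters differ at the start itself. Rpl13a and Rpl15, without a knockout hotspot, carry long oligopyrimidine tracts there, while Rps13, Rpl35a and Rpl10l have none within 5 bases of the annotated start. Rpl22l1 and Rpl38 carry shorter tracts. Over the 66 promoters the tract, at least 5 C or T bases beginning with C, was present in 30 (45.5%), against 19.1% of all 16456 promoters. It was present in 23 of the 55 promoters with a knockout hotspot within 1000 bp of an annotated start and in 7 of the 11 without, against 19.9% and 18.05% of all promoters. Divided by a hotspot at a gene end, the counts were 19 of 51 and 11 of 15. The second division counts as without a hotspot the 5 genes with one at a start inside the span, of which Rpl18, Rpl19, Rps2 and Rps27l carry the tract. The division by starts was added after the values by gene ends were seen. Motifs were searched on both strands of the 300-base promoters. CCGGAAG, the core recognised by ETS factors such as GABPA, was in 24 of the 66 (36.4%, against 12.3% of all), GGGCGG in 37 (56.1% against 47.3%), CCAAT in 20 (30.3% against 39.1%), TATAAA in 7 (10.6% against 13.5%), AAGATGGCG, a YY1 motif, in 4 (6.06% against 1.92%) and the NRF1 palindrome in 1 (1.52% against 1.37%). The CGCG palindrome bound by BANP was in 5 (7.58% against 0.723%), those of Rpl12, Rps6, Rps19, Rpl26 and Rps28. All 5 had a knockout hotspot at a gene end, as did 51 of the 66 genes. The median ratio of observed to expected CG dinucleotides was 0.909 in the 55 promoters with a knockout hotspot at a start and 0.596 in the 11 without, compared with 0.779 and 0.220 over all promoters. These are descriptions of the letters in this window and were not tested.

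Outside the knockout, ribosomal protein genes had hotspots about as often as other genes. In the 25 lists 52 of 2175 gene-and-list pairs had one (2.39%), against 2.54% over all autosomal protein-coding genes. In all, 17 of the 87 genes had a hotspot in at least 1 of the 25 lists (19.5%, against 17.6% of all genes). Of these, 9 genes had it in 1 list and 5 genes in 5 or more. The share of ribosomal protein genes was above that of all genes in 11 lists of 25. None of the 87 genes had a hotspot in 13R, 13RfXB6m, B6fX13Rm, C3HfX13Rm or PWDfX13Rm, where 1.92%, 1.9%, 1.36%, 2.11% and 1.95% of all genes had one. Each of the following lists had 1 gene: B6fXMOLm (1.97% of all genes), C3H (2.02%), C3HfXCASTm (1.99%), C3HfXMOLm (2.27%), MOL (2.41%), MOLfX13Rm (2.4%) and PWD (2.67%). There were 2 genes in B6fXC3Hm (1.81% of all genes), B6fXCASTm (2.18%), C3HfXB6m (2.68%) and MOLfXB6m (2.49%), and 3 genes in CASTfXB6m (2.4%), CASTfXMOLm (2.53%), PWDfXC3Hm (3.33%) and PWDfXCASTm (3.18%). With 1 gene being 1.15% of the 87, these counts were near the share of all genes. In B6, the strain named first in the label of the knockout, 3 genes had one (3.45%, interval 0.717 to 9.75, against 2.94% of all genes): Rpl3l, Rpl8 and Rpl7. Every one of these also had a knockout hotspot, but none at the same place, taken as centres less than 400 bp apart, as 0.494% of all genes had. The B6 hotspot at Rpl7 nevertheless lay inside the span of the wide knockout hotspot (7408 bp), 876 bp from its centre. It ranked 18122 of 18130 in B6. Over the 25 lists, 7 of the 52 pairs were at a knockout site (13.5%), against 14.7% over all genes.

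PWDfXB6m, the cross of a PWD mother and a B6 father, had the most, with 10 genes (11.5%, interval 5.65 to 20.1, against 6.2% of all genes). None of the 10 was in the stronger 50% of that list, where 1.51% of all genes had a hotspot. Its member hotspots fell into distinct sets. At Rpl10l, Rpl28, Rpl34, Rpl37 and Rps27 the centre lay 131 to 300 bp from a knockout centre (5 genes, 5.75%, against 3.33% of all genes), and at Rpl35 and Rpl7 it lay 605 and 636 bp away. All 7 of these genes were among the strongest 5000 of the knockout, with ranks between 998 (Rpl10l) and 4682 (Rpl28). Of the 27 ribosomal protein genes with a knockout hotspot in the strongest 5000, 7 had a hotspot in PWDfXB6m, compared with 21.6% of all 3764 such genes. Of the 21 without a knockout hotspot, 0 had one, compared with 2.41% of 9992. In PWDfXB6m itself the 7 hotspots were weak, at percentiles between 0.889 (Rpl34) and 10.3 (Rpl35), whereas all gene-end hotspots of that list had a median percentile of 20.6. The other 3 genes, Rpl38, Rpl3l and Rpl8, had hotspots 1462 bp or more from a knockout centre, at percentiles of 22.2, 41.3 and 25.5. The same places were used at these 3 genes in other lists.

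The reciprocal cross B6fXPWDm had 3 genes (3.45%, against 2.69% of all genes). Of these Rpl7 was at the knockout site, 277 bp from its centre and at percentile 0.708 (0.586% of all genes had such a hotspot), and Rpl3l and Rpl8 were at the places used in B6. PWDfXMOLm had 4 genes (4.6%, against 3.6%), with Rpl34 250 bp from the knockout centre at percentile 1.30 (1.07% of all genes), and Rpl5, Rpl31 and Rpl38 elsewhere. Rpl34 was the one autosomal ribosomal protein gene with a knockout-site hotspot in 2 other lists. Both were in the weakest 2% of their lists.

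**Figure D4:**
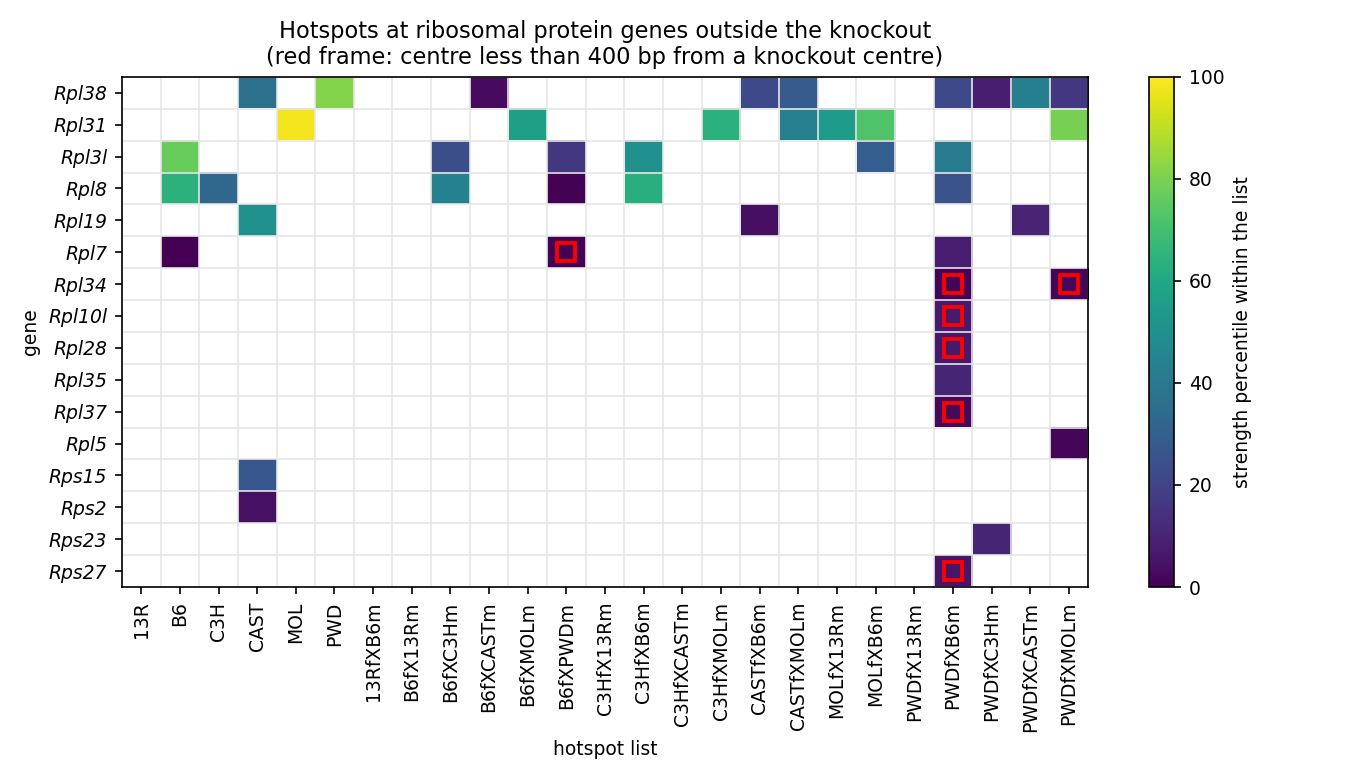
Shown are 16 of the 17 ribosomal protein genes (y axis) with a hotspot in any of the 25 lists other than the knockout (x axis); colour is the strength percentile within the list, white means no hotspot, and a red frame marks a centre less than 400 bp from a knockout centre. Rpl31 is filled in the 7 lists with a MOL parent only, and the framed cells lie in PWDfXB6m, B6fXPWDm and PWDfXMOLm.

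To ask whether hotspots at single genes went with a parental strain, presence in lists with that strain as a parent, the inbred list included, was compared with presence in the remaining lists by a two-sided Fisher's exact test. The test was made for 2334 genes with a hotspot in at least 2 of the 25 lists and for each of 6 strains, with Benjamini-Hochberg adjustment over all 14004 tests. The test treats all lists as independent, although many have a parent in common. Of the 8 ribosomal protein genes tested, 3 passed, against 47.9% of all genes tested, and 3 of 8 passed without the CAST library. In each of the 3, hotspots were more frequent with 1 strain.

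Rpl31, a large-subunit gene on chromosome 1, had a hotspot in 7 of 7 lists with a MOL parent and in 0 of 18 others (Fisher's exact test, adjusted p = 0.00019). Its strength percentile was 98.2 in inbred MOL, where it ranked 270 of 14585. In the crosses the percentile was 79.7 in PWDfXMOLm, 72.5 in MOLfXB6m, 64.1 in C3HfXMOLm, 56.9 in B6fXMOLm, 55.1 in MOLfX13Rm and 43.6 in CASTfXMOLm. By percentile the hotspot was strongest in the inbred strain and present in every cross of it. Its centres lay within 238 bp of each other, just past the 3′ end of Rpl31 and 3735 to 3973 bp from the knockout hotspot at the start of the gene (rank 3612). In MOL it ran from 39370277 to 39374446. An end of Tbc1d8 also lies within 1000 bp of these centres.

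Rpl3l, the muscle-expressed paralog on chromosome 17, had a hotspot in 6 of 11 lists with a B6 parent and in 0 of 14 others (Fisher's exact test, adjusted p = 0.035). The percentile was 76.9 in B6, 50 in C3HfXB6m, 41.3 in PWDfXB6m, 29.9 in MOLfXB6m, 24 in B6fXC3Hm and 16.3 in B6fXPWDm. It was missing from both crosses with CAST, both crosses with 13R and from B6fXMOLm. This call depended on 1 library: without PWDfXB6m the counts were 5 of 10 and 0 of 14 (exact test, adjusted p = 0.0707). The centres lay inside the gene near its 3′ end, 1452 to 1599 bp from a knockout hotspot of rank 25908 just past it, which is shared with Msrb1.

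Rpl38, a large-subunit gene on chromosome 11, had hotspots in more lists than any other autosomal ribosomal protein gene, 9 of 25. It was present in 5 of 6 lists with a CAST parent (Fisher's exact test, adjusted p = 0.129) and in 5 of 7 with a PWD parent (exact test, adjusted p = 0.428), and neither passed. All 9 lists had CAST or PWD as a parent. The percentile was 81.3 in PWD and 37.0 in CAST, and lay between 3.11 (B6fXCASTm) and 43.0 (PWDfXCASTm) in the crosses. The centres were within 316 bp of each other, past the 3′ end of the gene and 3212 to 3452 bp from the nearest knockout centre. The places used at Rpl31, Rpl38 and Rpl3l were at the 3′ end, whereas the knockout hotspots of Rpl31 and of most other ribosomal protein genes were at the start.

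Rpl8, a large-subunit gene on chromosome 15, had hotspots in 6 lists: B6 (percentile 64.1), C3H (33.4), C3HfXB6m (62.7), B6fXC3Hm (43.8), PWDfXB6m (25.5) and B6fXPWDm (0.615). Presence was not shown to follow B6 (5 of 11 against 1 of 14, Fisher's exact test, adjusted p = 0.425). Rpl19 had hotspots in CAST, CASTfXB6m and PWDfXCASTm (3 of 6 against 0 of 19, exact test, adjusted p = 0.0947), with percentiles of 50.1, 3.96 and 10.1. Rpl7 was present in B6, B6fXPWDm and PWDfXB6m (3 of 11 against 0 of 14 for B6, exact test, adjusted p = 0.438) and Rpl34 in PWDfXB6m and PWDfXMOLm (2 of 7 against 0 of 18 for PWD, exact test, adjusted p = 0.438). All the hotspots of Rpl7 and Rpl34 in these lists were below percentile 8. Of the genes present in 1 list, Rps15 (percentile 27.1) and Rps2 (4.36) had their hotspot in CAST, Rps23 (10.2) in PWDfXC3Hm and Rpl5 (1.22), whose product binds 5S ribosomal RNA, in PWDfXMOLm. CAST held 5 autosomal ribosomal protein genes, the highest count among the inbred lists (5.75%, interval 1.89 to 12.9, against 2.42% of all genes). The interval includes the share of all genes, and this is the library named as once wrongly labelled.

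Other genes of the translation and protein turnover machinery had knockout hotspots in shares between 79.5% and 92.9%, against 75.9% for ribosomal protein genes. The 75.9% includes the paralogs, Rps19bp1 and the genes with retrogene or pseudogene names. The 73 small-subunit, large-subunit and stalk genes alone stood at 80.8%, within the range of the other lists. A knockout hotspot was present at 62 of 78 mitochondrial ribosomal protein genes (79.5%), 56 of 68 translation factor genes (82.4%), 38 of 41 ribosome assembly genes (92.7%), 13 of 14 RNA polymerase I genes (92.9%) and 31 of 39 proteasome subunit genes (79.5%). The share with a hotspot in the strongest 5000 was 19.2% for mitochondrial ribosomal protein genes, near the 18.2% of all genes, and 31.0% for ribosomal protein genes, 30.8% for proteasome genes, 28.6% for RNA polymerase I genes, 39.7% for translation factors and 41.5% for ribosome assembly. The strongest in each were Mrpl50 (rank 407), Eif2a (rank 244), a translation initiation factor, Pno1 (rank 761), a 40S assembly factor, Rrn3 (rank 256), an initiation factor of RNA polymerase I, and the testis-specific proteasome subunit Psma8 (rank 174). Of the ribosomal proteins whose genes have other symbols, Rack1 had a hotspot at rank 650 and Fau had none. In PWDfXB6m the share with a hotspot was 8.97% for mitochondrial ribosomal protein genes, 8.82% for translation factors, 12.2% for ribosome assembly, 14.3% for RNA polymerase I (2 of 14) and 7.69% for proteasome subunits. The differences between these lists were not tested. Translation factors were taken by symbol alone, Eif or Eef followed by a digit, so genes whose products are not factors were not removed.

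**Figure D5:**
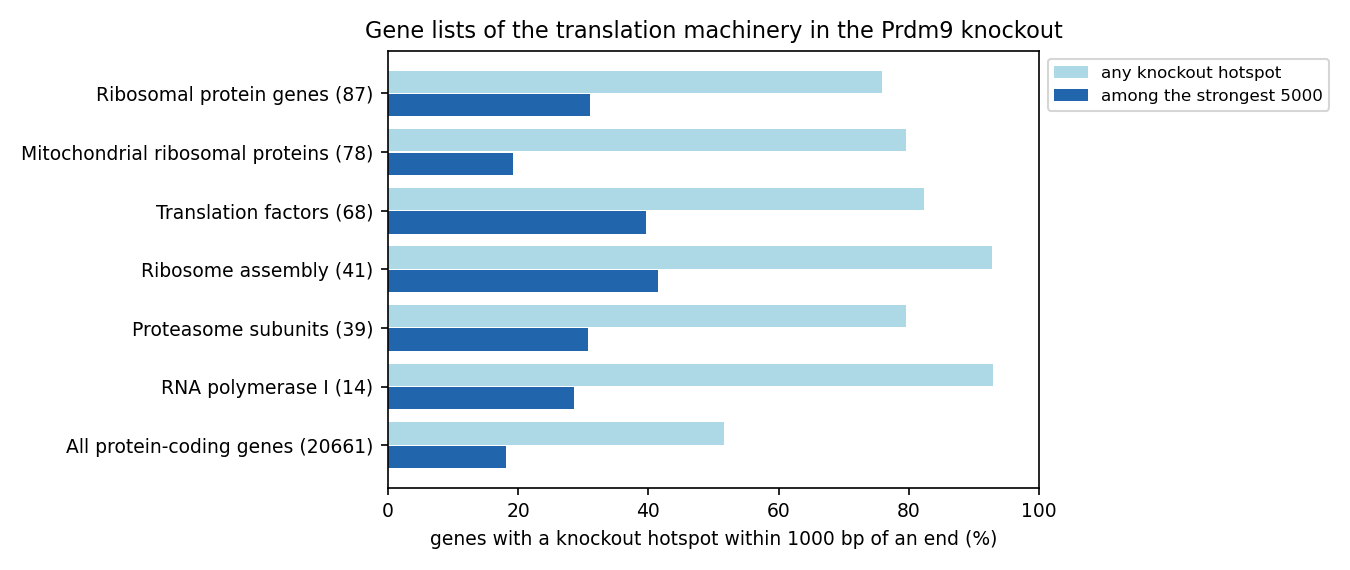
Percent of genes with a knockout hotspot within 1000 bp of an end (x axis; light bars, any hotspot; dark bars, a hotspot among the strongest 5000) for 6 gene lists and all autosomal protein-coding genes (y axis, number of genes in brackets). Every list lies above the 51.6% of all genes, and the dark bar of the mitochondrial ribosomal proteins, 19.2%, is near that of all genes.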

How the data were processed

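DMC1 SSDS hotspots of 26 testis libraries were analysed; 5 input samples were not used. The deposited files give chromosome, start, end and a strength score for each hotspot. Coordinates are on mm10, and MACS2 2.0.10 and CASAVA 1.8 are named as tools, per the submitters' processing notes. How the authors filtered hotspots and scaled the score is not given in the sources used here. Of 414683 scores 104 are below 0, so the score was used only as a rank or percentile among the autosomal hotspots of a list. Read depth is unknown. Starts were taken as counted from 0 and are printed 1-based.

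Genes came from the RefSeq table of GRCm38.p6, and starts of transcription and promoters from a RefSeq promoter table of the same build, matched by gene ID (66 of 87 genes). Genes without an entry include Rpl17, Rpl21, Rpl23a, Rpl29, Rpl3, Rpl30, Rpl32, Rpl34-ps1, Rpl36, Rpl7, Rpl8, Rplp1, Rps14, Rps20, Rps27a and Rps29. Where a gene has several starts, distances use the nearest and motifs the most upstream. Matching and tests used Python 3.11.15 with scipy 1.17.1, and the strain test and matching were tested on simulated data.

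The genes and lists were chosen with earlier results of these data known. Named were the 12 strongest members of the knockout, those without a knockout hotspot, those in B6 or PWDfXB6m, those in 5 or more of the 25 other lists and those passing the strain test, some of which are not reported here; members in fewer lists were named after their values were seen. Alternatives covered window, overlap rule, starts only, list length and membership.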

Additional observations from a re-analysis of the deposited data

Results flagged for a closer look

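Among the 10 crosses with a B6 parent, PWDfXB6m lay far above the others in the share of ribosomal protein genes with a hotspot, at 11.5%, where the next highest had 3.45%. Among the 6 crosses with a PWD parent, PWDfXB6m was also highest but did not stand apart by the same measure (its gap to the next was 0.6 of the range, with 0.625 needed). The same cross was highest for all autosomal protein-coding genes, at 6.2%. Among the 5 crosses with a 13R parent, MOLfX13Rm stood apart at 1.15%, which is the single gene Rpl31, against 0 in the other 4. With the other 4 at 0, any single gene gives the largest value this measure can take, so it says nothing further about that cross. A test of this kind marks about 1 in 20 groups by chance.

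The X-linked ribosomal protein genes were outside the autosomal comparisons. All 4 of them, Rpl10, Rpl36a, Rpl39 and Rps4x, had a knockout hotspot within 1000 bp of an end, against 50.1% of 966 X-linked protein-coding genes, with ranks among all 30929 knockout hotspots of 5540, 3137, 1197 and 13626.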

How the results depend on the processing

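Counts of ribosomal protein genes with a hotspot depended on the window and on list length, and the share in the knockout exceeded that of all genes under every alternative listed here. The knockout count, 66, was 50 with a 500 bp window (57.5% against 42.1%), 72 with 2500 bp (82.8% against 58.8%), 48 in the strongest 50% (55.2% against 37.1%) and 27 in the strongest 5000. The B6 count, 3, was 1 at 500 bp (1.15% against 1.43%), 7 at 2500 bp (8.05% against 7.32%), 0 at starts only (against 1.39%) and 1 in the strongest 5000 (1.15% against 0.673%), so its order against all genes turned at 500 bp and at starts. The PWDfXB6m count, 10, was 6 at starts only (9.09% against 4.85%), and 0 both in the strongest 5000 (against 0.891%) and in the strongest 50% of the list (against 1.51%), where the order turned. The count over the 25 lists, 17, was 38 at 2500 bp (43.7% against 35.4%), 7 at starts only (10.6% against 9.83%), 4 in the strongest 5000 (4.6% against 5.64%) and 6 in the strongest 50% (6.9% against 7.8%); without PWDfXB6m it was 12 (13.8% against 15.9%). The order against all genes turned in the last 3 of these, and also by overlap with a gene end (18.4% against 18.5%); for B6 it turned too without paralogs (2.63% against 2.94%) and with canonical genes (2.74%). Starts-only counts cover the 66 genes with an annotated start. The set of canonical genes was an alternative chosen after seeing the data. The strain test passed 3 of the 8 ribosomal protein genes tested. With 2500 bp more genes could be tested, and 8 of 23 passed (adding Rpl4, Rpl6, Rps15a, Rps23 and Rps3). Rpl31 passed under every alternative run. Rpl3l did not pass when all genes were tested (exact test, adjusted p = 0.31). The median percentile of 75.2 was 55.7 among hotspots at gene ends only, by construction, where all genes stood at 52.6. No paired analysis was possible because each genotype has 1 library. Read depth is unknown, so no limit can be given for genes without a listed hotspot.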

Other observations

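Hotspots at 2 X-linked ribosomal protein genes recurred in lists other than the knockout. Rpl39, a large-subunit gene, had one in 12 of the 25 lists, as 4.87% of X-linked protein-coding genes had in 12 or more. The lists were 13R, 13RfXB6m, B6fXC3Hm, B6fXPWDm, C3H, C3HfX13Rm, C3HfXB6m, MOL, MOLfXB6m, PWDfXB6m, PWDfXC3Hm and PWDfXMOLm, and none has a CAST parent. In B6fXPWDm, PWDfXC3Hm and PWDfXMOLm the centre lay 141, 171 and 123 bp from the knockout centre, and in PWDfXB6m 401 bp. Rpl36a, also of the large subunit, had one in the 6 lists with a CAST parent and in PWD. It ranked 1065 of 15068 in CAST and 12327 of 14539 in PWD. All its centres lay close to the knockout centre, from 362 bp (C3HfXCASTm) to 558 bp (CASTfXMOLm) away. Only the one in C3HfXCASTm was less than 400 bp away. Rpl10 had one in PWDfXB6m, 254 bp from the knockout centre, and Rps4x had none outside the knockout. These genes were looked at after the autosomal values were known, and no test was made.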
